A study of Homo sapiens with 12 samples.

Results

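The 29 genes described here code for enzymes of cholesterol and fatty acid synthesis, for the sterol regulatory element binding proteins (SREBPs) that drive these enzymes, and for a few proteins that move sterols. They were taken from a table of 63241 genes by their symbols alone, each symbol was found once, and all 29 passed the filter on low counts that left 15614 genes to test. Transcripts were counted in 2 human testicular germ cell tumour lines. TCam-2 is a seminoma line, kept in RPMI, and 2102 EP is an embryonal carcinoma line, kept in DMEM; both are labelled WT and both media held serum. Each line was exposed for 24 h to 15 µM I-BRD9, a chemical probe against the bromodomain protein BRD9, which belongs to a chromatin remodelling complex (non-canonical BAF), or to DMSO. The groups were TCam-2 in I-BRD9, TCam-2 in DMSO, 2102 EP in I-BRD9 and 2102 EP in DMSO, with 3 libraries in each. Each tumour type stands on 1 line. The labels call the libraries of a group biological replicates without saying how the cultures were separated, so the p-values measure the spread between these libraries, which may be technical.

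Cells make cholesterol from acetyl-CoA through mevalonate, farnesyl diphosphate and squalene. SREBPs are transcription factors held in the membrane of the endoplasmic reticulum. When sterols are scarce, SCAP escorts them to the Golgi apparatus, where proteases free the part that enters the nucleus and raises transcription of the synthesis genes. When sterols are plentiful, INSIG proteins hold SCAP back. Liver X receptors (LXR) work the other way round, in that oxysterols activate them and they raise genes of sterol efflux such as ABCA1.

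Levels are given as CPM, that is, a gene's count for every 1000000 counts of the library after scaling by TMM. The kit primes at the polyadenylated 3′ end, so that CPM do not depend on transcript length. CPM are shares of the counted RNA, so that neither the number of cells nor the total RNA per cell can be read from them. The 12 libraries held 7290335 to 10053366 counts, at which 3 counts correspond to 0.298 to 0.412 CPM, and libraries of 1 group correlated at r = 0.971 to 0.981 over genes. The line labels were checked against markers. SOX2, a pluripotency factor of embryonal carcinoma, averaged 17.0 ± 2.28 CPM in TCam-2 and 467 ± 21.0 CPM in 2102 EP in DMSO (SD, n = 3 each), whereas SOX17, a seminoma factor, averaged 192 ± 6.63 CPM in TCam-2 and 0.0773 ± 0.0669 CPM in 2102 EP. TNFRSF8, an embryonal carcinoma marker also known as CD30, stayed at 0.383 to 1.06 CPM in 2102 EP in DMSO, near 0. BRD9 itself had 115, 128 and 125 CPM in I-BRD9, against 138, 141 and 145 CPM in DMSO, in TCam-2 (log2 fold change -0.21 ± 0.09, adjusted p = 0.0965), and 92.4 ± 11.2 CPM in I-BRD9, against 111 ± 11.7 CPM in DMSO, in 2102 EP (SD, n = 3 each; log2 fold change -0.26 ± 0.09, adjusted p = 0.0328). In 2102 EP the fall did not pass the test when replicate 2 or 3 of I-BRD9, or replicate 1 or 3 of DMSO, was left out (-0.27 to -0.18, adjusted p = 0.0604 to 0.185). Standard errors follow log2 fold changes after ±.

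Most of the 29 genes were higher after I-BRD9. In TCam-2, 19 rose, 2 fell and 8 were not called at an adjusted p under 0.05 in edgeR's quasi-likelihood test; of all genes tested, 31.8% were called, 15.3% higher and 16.5% lower. In 2102 EP, 15 rose, 1 fell and 13 were not called, where 36.8% of all genes tested were called, 18.2% higher and 18.6% lower. The median log2 fold change over the 29 genes was 0.64 in TCam-2, where that over all genes tested was 0.0069, and 0.28 in 2102 EP, where it was 0.0025. All 3 I-BRD9 libraries lay above all 3 DMSO libraries for 20 of the genes in TCam-2, where 22.9% of all genes tested did so, and for 14 in 2102 EP, where 23.1% did. They lay below for 2 in TCam-2 (22.8% of all genes tested) and for 1 in 2102 EP (23.2%); in either direction 45.7% of all genes tested did not overlap in TCam-2 and 46.3% in 2102 EP. At least 2-fold higher and called were 9 of the genes in TCam-2 (4.69% of all genes tested) and 4 in 2102 EP (6.89%). In each line 1 gene was at least 2-fold lower and called, as were 5.07% of all genes tested in TCam-2 and 5.54% in 2102 EP.

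**Figure D1:**
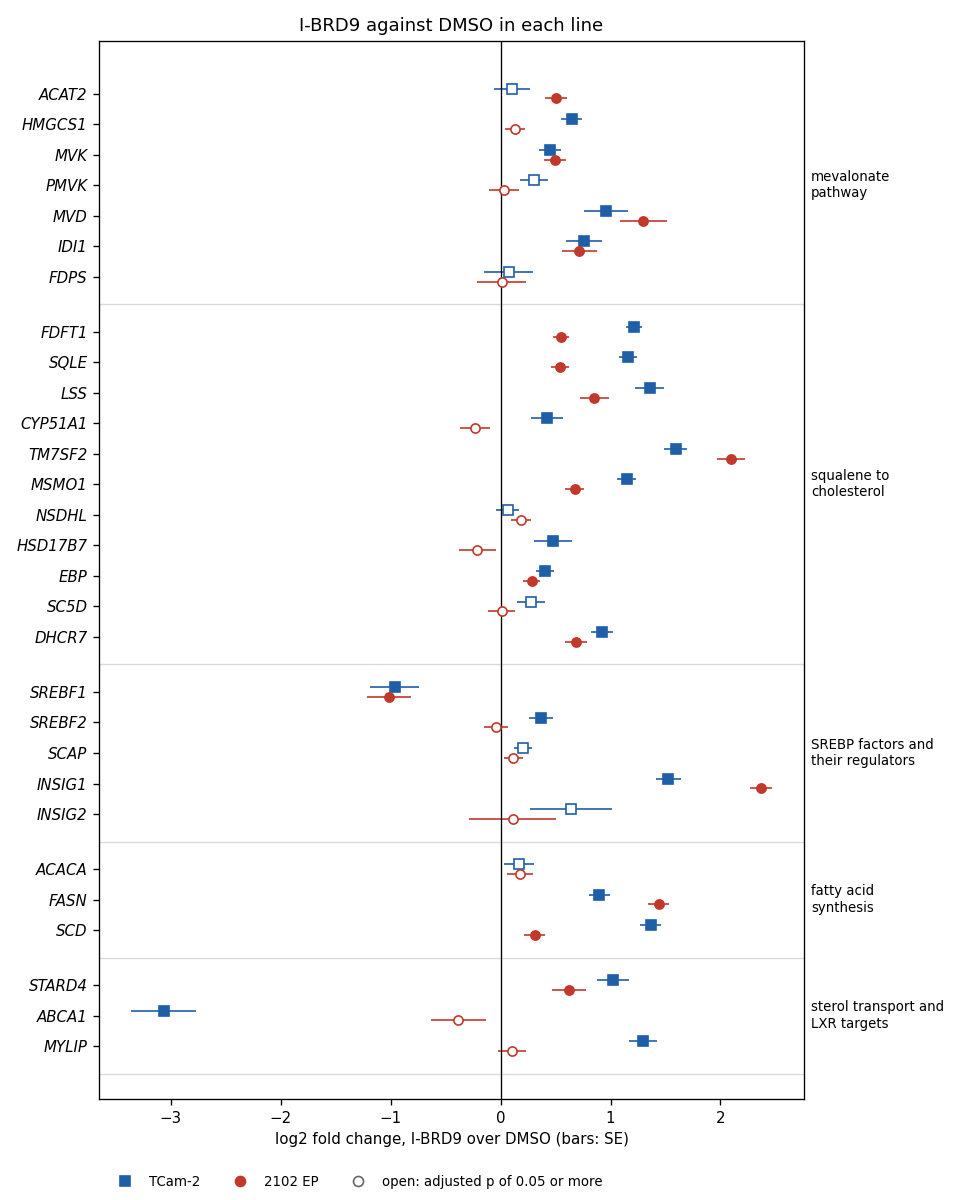
Log2 fold change of I-BRD9 over DMSO for each of the 29 genes, grouped by role, in TCam-2 (squares) and 2102 EP (circles), with bars for the standard error; filled symbols have an adjusted p under 0.05. Most filled symbols lie right of 0, TM7SF2 and INSIG1 lie farthest right in both lines, SREBF1 lies left in both, and ABCA1 lies at -3.07 in TCam-2.

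The genes called higher in both lines were 14 of 29, where 8.26% of all genes tested were. They were MVK, MVD and IDI1 of the mevalonate pathway, FDFT1, SQLE, LSS, TM7SF2, MSMO1, EBP and DHCR7 of the path from squalene to cholesterol, INSIG1, FASN, SCD and STARD4. SREBF1 was called lower in both lines, as were 8.51% of all genes tested. No gene of the 29 was called in opposite directions, where only 1.75% of all genes tested were. PMVK, FDPS, NSDHL, SC5D, SCAP, INSIG2 and ACACA were called in neither line. Across the 29 genes the log2 fold changes of the lines, which share no library but share 1 fit, had r = 0.624 and rho = 0.696, and r = 0.734 and rho = 0.662 without ABCA1, given as a description. Of the 29 genes, 26 changed with the same sign in both lines, where 68.3% of all genes tested did.

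**Figure D2:**
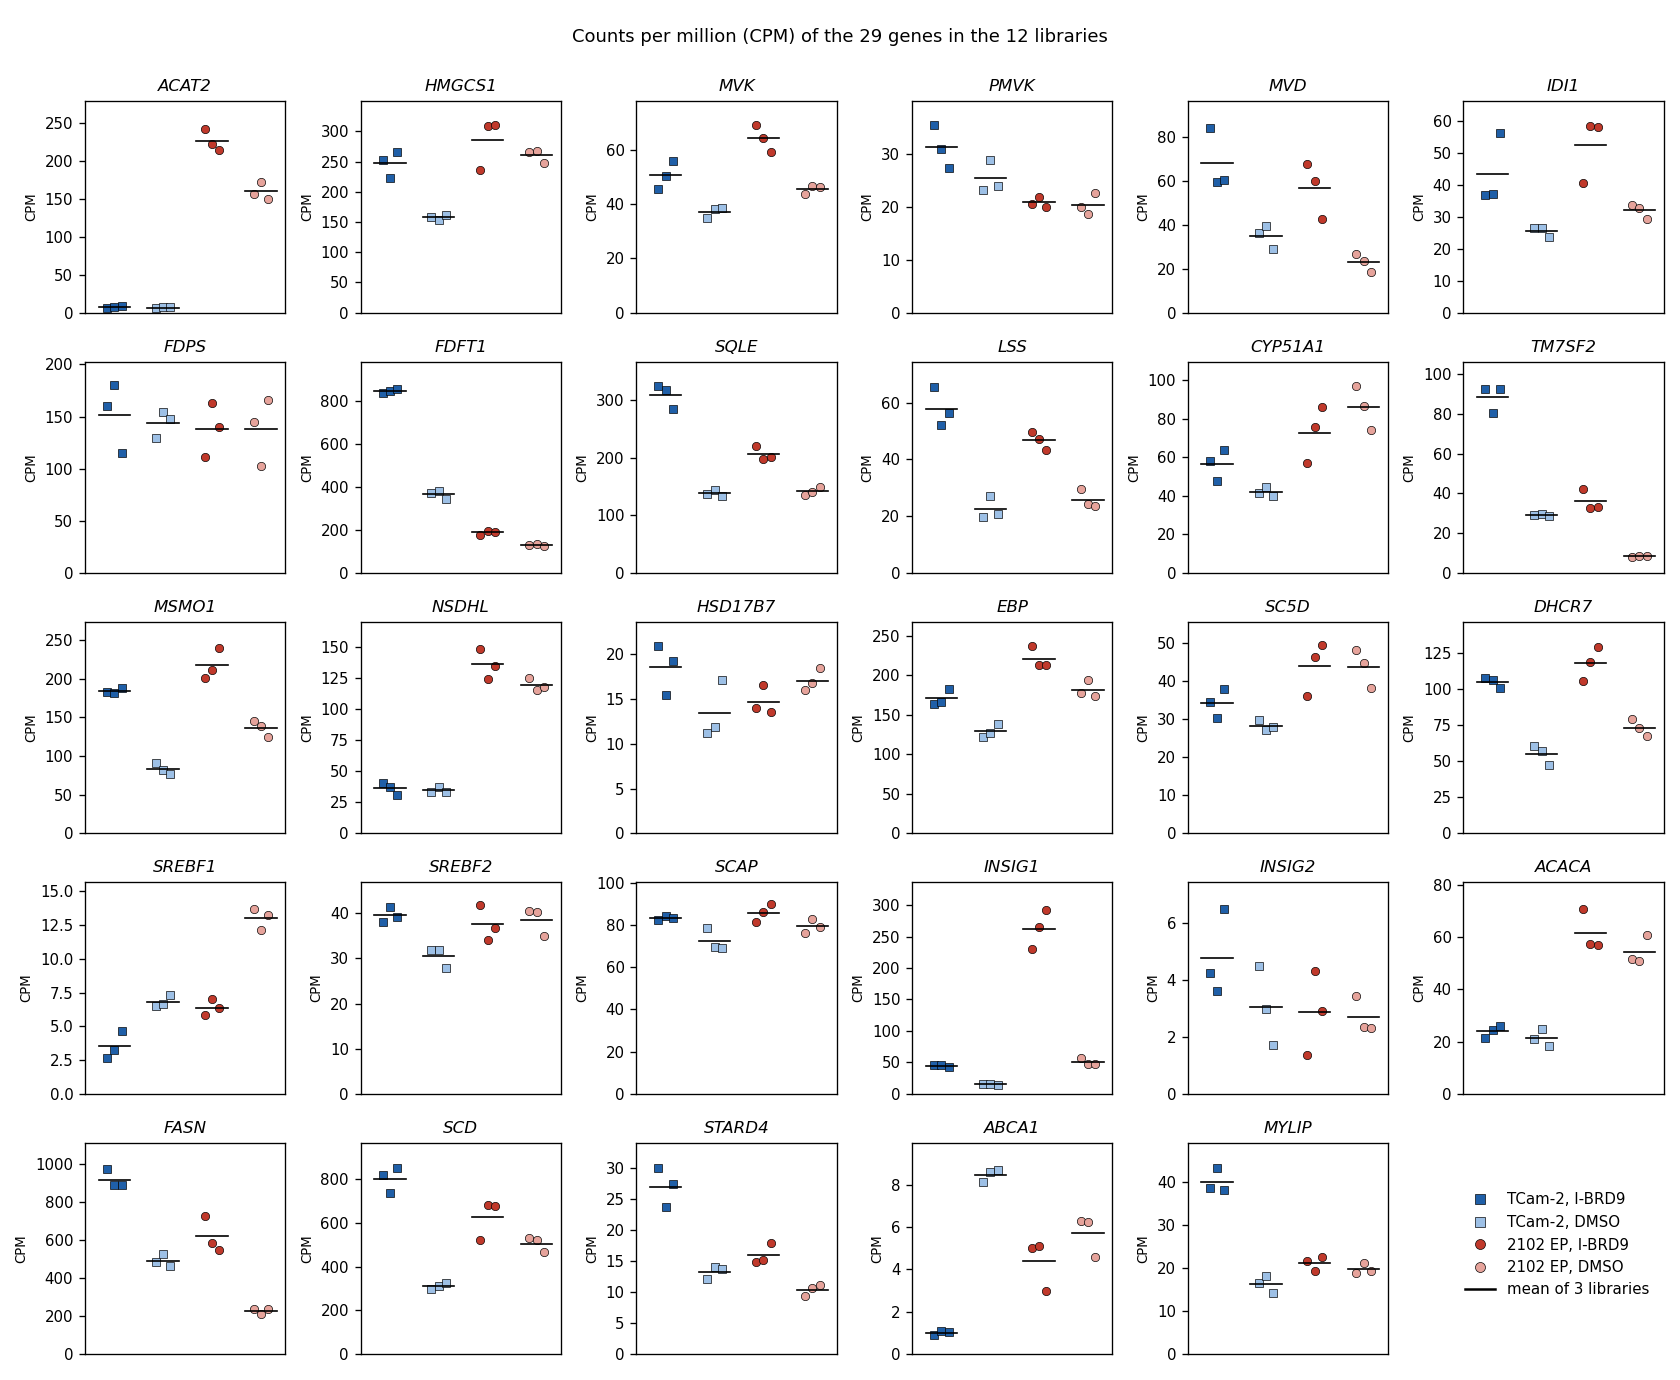
CPM of each of the 29 genes in each of the 12 libraries (points), with the mean of 3 libraries as a line and 1 panel per gene, each panel with its own axis from 0. The I-BRD9 points stand above the DMSO points without overlap for 20 genes in TCam-2 (dark against light squares) and for 14 in 2102 EP (dark against light circles).

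The stretches of 250 bases before their annotated starts were read for letters that SREBPs and their partner factors are known to bind. RefSeq windows on GRCh38.p14 were matched for 25 of the 29 genes, 33 windows in all, and ACAT2, FDFT1, SQLE and FASN had none matched. The CCAAT box (CCAAT, either strand), bound by NF-Y, was in 22 of the 33 windows (66.7%) of 19 genes, and in 33.0% of the windows of all genes tested. The GC box (GGGCGG, either strand), bound by Sp1, was in 90.9% of the genes' windows and in 63.0% of those of all genes tested. The E-box CACGTG was in 5 of the 33 windows (15.2%), those of ABCA1, INSIG1, SC5D and SCAP, and in 8.15% of those of all genes tested. Both windows of SC5D overlap and hold the same E-box and the same CCAAT box, which were counted in each window. The letters TCACNCCAC of a sterol regulatory element (either strand) were in 1 window, that of SREBF2, and in 0.881% of those of all genes tested. None of these 4 motifs holds another whole, partly overlapping sites were each counted, a match is a description of the sequence, and a window without one says only that these letters are not in it. The 5 windows printed are those of INSIG1, TM7SF2 and MVD, which had the largest rises in 2102 EP among genes with a window and also rose in TCam-2, and of both SREBP genes; capitals mark CCAAT boxes (CCAAT, or ATTGG on the other strand), the E-box and the sterol regulatory element, and each runs 5′ to 3′ on the strand of its gene. They lie at chr7:155297628-155297877 (plus strand), chr11:65111622-65111871 (plus), chr16:88663092-88663341 (minus), chr22:41832855-41833104 (plus) and chr17:17836987-17837236 (minus).
INSIG1: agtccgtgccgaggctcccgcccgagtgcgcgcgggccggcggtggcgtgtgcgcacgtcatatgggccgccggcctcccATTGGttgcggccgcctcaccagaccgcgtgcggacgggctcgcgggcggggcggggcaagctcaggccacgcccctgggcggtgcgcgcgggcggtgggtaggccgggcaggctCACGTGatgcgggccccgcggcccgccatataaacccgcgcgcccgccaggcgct
TM7SF2: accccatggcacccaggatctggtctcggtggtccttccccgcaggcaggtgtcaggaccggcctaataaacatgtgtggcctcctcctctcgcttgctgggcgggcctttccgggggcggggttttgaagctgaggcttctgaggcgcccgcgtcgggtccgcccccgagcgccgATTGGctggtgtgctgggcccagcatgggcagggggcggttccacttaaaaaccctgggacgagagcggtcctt
MVD: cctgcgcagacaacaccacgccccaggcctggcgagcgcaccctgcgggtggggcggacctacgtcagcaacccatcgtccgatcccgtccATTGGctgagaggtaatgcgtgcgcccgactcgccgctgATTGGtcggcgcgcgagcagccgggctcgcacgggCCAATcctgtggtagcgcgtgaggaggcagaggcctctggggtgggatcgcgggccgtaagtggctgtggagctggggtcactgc
SREBF2: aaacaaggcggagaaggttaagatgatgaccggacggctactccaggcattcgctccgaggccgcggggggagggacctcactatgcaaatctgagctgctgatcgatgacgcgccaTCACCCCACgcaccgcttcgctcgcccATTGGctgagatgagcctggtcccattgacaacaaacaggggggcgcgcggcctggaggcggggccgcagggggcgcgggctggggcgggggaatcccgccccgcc
SREBF1: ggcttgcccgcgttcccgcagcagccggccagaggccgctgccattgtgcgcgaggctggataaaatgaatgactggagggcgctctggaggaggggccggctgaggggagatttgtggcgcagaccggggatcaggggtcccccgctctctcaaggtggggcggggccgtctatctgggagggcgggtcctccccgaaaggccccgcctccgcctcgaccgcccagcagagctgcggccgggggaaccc
MVD has 3 CCAAT boxes, INSIG1, TM7SF2 and SREBF2 have 1 each, and SREBF1 has none, nor an E-box or a sterol regulatory element, but 3 GC boxes. Whether motifs go with the direction of change was not tested. In SREBF2 the sterol regulatory element starts 133 bases and the CCAAT box 106 bases before the start.

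Among the regulators, INSIG1 (ENSG00000186480, chr7:155297776-155310235 on the plus strand of GRCh38) rose the most. It codes for the endoplasmic reticulum protein that retains the SCAP and SREBP complex and is itself a well-known SREBP target. In TCam-2, INSIG1 had 45.3, 45.6 and 42.6 CPM in I-BRD9, against 15.9, 15.9 and 14.5 CPM in DMSO. In 2102 EP it had 229.6, 266 and 292 CPM in I-BRD9, against 57.3, 47.9 and 47.3 CPM in DMSO. The I-BRD9 and DMSO libraries were far apart in both lines, with log2 fold changes of 1.52 ± 0.11 in TCam-2 (adjusted p = 4.7e-10) and 2.37 ± 0.10 in 2102 EP (adjusted p = 3.94e-14), or 2.88-fold and 5.16-fold. INSIG2, its relative, was counted at 3.596 to 6.48 CPM in I-BRD9, against 1.71 to 4.48 CPM in DMSO, in TCam-2, and at 1.36 to 4.30 CPM in I-BRD9, against 2.30 to 3.42 CPM in DMSO, in 2102 EP. These groups overlapped and INSIG2 was not called (adjusted p = 0.212 in TCam-2 and 0.863 in 2102 EP), at a depth where its interval in 2102 EP ran from -0.81 to 1.02 on the log2 scale.

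SREBF1 (ENSG00000072310, chr17:17810399-17837002, minus strand), which codes for SREBP-1, the form tied most to fatty acid synthesis, fell in both lines. In TCam-2 it had 2.66, 3.24 and 4.63 CPM in I-BRD9, against 6.48, 6.67 and 7.33 CPM in DMSO (log2 fold change -0.96 ± 0.22, adjusted p = 0.00166). In 2102 EP it had 5.85, 6.995 and 6.34 CPM in I-BRD9, against 13.7, 12.1 and 13.3 CPM in DMSO (-1.02 ± 0.20, adjusted p = 0.000329). Every I-BRD9 library was below every DMSO library of its line. The last 500 bases of SREBF1 overlap RAI1 on the other strand. The use of strand in counting is not given in the sources used here. In TCam-2 RAI1 averaged 6.54 ± 0.951 CPM in I-BRD9, against 10.98 ± 1.31 CPM in DMSO (SD, n = 3 each). In 2102 EP it averaged 10.88 ± 0.260 CPM in I-BRD9, against 5.12 ± 0.433 CPM in DMSO (SD, n = 3 each). RAI1 was thus lower in I-BRD9 in TCam-2, as SREBF1 was, and higher in 2102 EP, where SREBF1 was lower. Whether reads of RAI1 entered the counts of SREBF1 was not tested. SREBF2, which codes for SREBP-2, the form tied most to cholesterol synthesis, had 38.1, 41.4 and 39.1 CPM in I-BRD9, against 31.8, 31.8 and 28.0 CPM in DMSO, in TCam-2 (0.37 ± 0.11, adjusted p = 0.0114). In 2102 EP its groups overlapped, at 41.9, 34.2 and 36.7 CPM in I-BRD9, against 40.4, 40.4 and 34.9 CPM in DMSO (-0.04 ± 0.11, adjusted p = 0.806). The rise in TCam-2 was not called without DMSO replicate 3 (0.31, adjusted p = 0.06). SCAP, the escort protein, had 82.4 to 84.0 CPM in I-BRD9, against 68.8 to 78.4 CPM in DMSO, in TCam-2, and 81.5 to 89.9 CPM in I-BRD9, against 76.1 to 82.6 CPM in DMSO, in 2102 EP, and was not called in either, although the groups did not overlap in TCam-2 (adjusted p = 0.0717 in TCam-2 and 0.307 in 2102 EP).

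In the mevalonate pathway, which leads from acetyl-CoA to farnesyl diphosphate, 4 of 7 genes rose in each line and none was called lower. Of all genes tested, 15.3% were called higher and 16.5% lower in TCam-2, and 18.2% and 18.6% in 2102 EP. MVD, the decarboxylase that makes isopentenyl diphosphate, had 84.4, 59.5 and 60.5 CPM in I-BRD9, against 36.5, 39.4 and 29.1 CPM in DMSO, in TCam-2. In 2102 EP it had 68.0, 60.3 and 42.6 CPM in I-BRD9, against 26.8, 23.8 and 18.5 CPM in DMSO. The groups did not overlap in either line, with log2 fold changes of 0.96 ± 0.20 in TCam-2 (adjusted p = 0.00313) and 1.30 ± 0.21 in 2102 EP (adjusted p = 0.000457), although the 3 I-BRD9 libraries of each line spread widely. IDI1, the isomerase that follows, had 36.7, 37.2 and 56.1 CPM in I-BRD9, against 26.5, 26.5 and 23.7 CPM in DMSO, in TCam-2, and MVK, mevalonate kinase, had 45.6, 50.5 and 55.9 CPM in I-BRD9, against 34.7, 38.0 and 38.5 CPM in DMSO. In 2102 EP, IDI1 had 40.5, 58.5 and 58.2 CPM in I-BRD9, against 33.7, 32.8 and 29.5 CPM in DMSO, and MVK had 69.1, 64.4 and 59.1 CPM in I-BRD9, against 43.8, 46.6 and 46.3 CPM in DMSO. Both rose in both lines, IDI1 by 0.76 ± 0.16 in TCam-2 and 0.72 ± 0.16 in 2102 EP (adjusted p = 0.00168 and 0.00198) and MVK by 0.45 ± 0.10 and 0.49 ± 0.10 (adjusted p = 0.00145 and 0.000427) on the log2 scale.

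HMGCS1 and ACAT2, which catalyse the first condensations of the pathway, were each called in 1 line. HMGCS1, cytosolic HMG-CoA synthase, had 253, 222 and 266 CPM in I-BRD9, against 159, 153 and 162 CPM in DMSO, in TCam-2, without overlap (0.65 ± 0.09, adjusted p = 1.19e-05). In 2102 EP it had 237, 309 and 310.2 CPM in I-BRD9, against 265, 268 and 248 CPM in DMSO, and I-BRD9 replicate 1 lay below all 3 DMSO libraries (0.13 ± 0.09, adjusted p = 0.278). Without that library HMGCS1 was called in 2102 EP (0.25, adjusted p = 0.0133). ACAT2 (ENSG00000120437, chr6:159760328-159779055, plus strand), the cytosolic acetoacetyl-CoA thiolase, was scarce in TCam-2, with 6.02, 6.83 and 8.91 CPM in I-BRD9, against 5.42, 6.99 and 7.70 CPM in DMSO, and was not called there (0.11 ± 0.16, adjusted p = 0.673). In 2102 EP ACAT2 rose, with 242, 223 and 215 CPM in I-BRD9, against 157, 173 and 150.4 CPM in DMSO (0.50 ± 0.10, adjusted p = 0.000314). The difference between these effects was -0.40 ± 0.19 (TCam-2 minus 2102 EP, adjusted p = 0.191). The 3′ end of ACAT2 overlaps TCP1, a chaperonin gene on the other strand, which averaged 329 ± 7.03 CPM in I-BRD9, against 816 ± 43.8 CPM in DMSO, in TCam-2, and 381 ± 12.2 CPM in I-BRD9, against 493 ± 23.9 CPM in DMSO, in 2102 EP (SD, n = 3 each). TCP1 was thus plentiful in TCam-2, where ACAT2 was scarce, and lower in I-BRD9 in both lines. Whether reads of TCP1 entered the counts of ACAT2 was not tested.

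PMVK, phosphomevalonate kinase, and FDPS, farnesyl diphosphate synthase, were called in neither line. PMVK had 35.4, 30.9 and 27.3 CPM in I-BRD9, against 23.2, 28.8 and 24.0 CPM in DMSO, in TCam-2 (0.30 ± 0.13, adjusted p = 0.0816). In 2102 EP PMVK had 20.5, 21.9 and 19.9 CPM in I-BRD9, against 19.9, 18.6 and 22.6 CPM in DMSO (0.03 ± 0.14, adjusted p = 0.877). The PMVK groups overlapped in both lines. FDPS ranged over 115 to 180.4 CPM in I-BRD9, against 129.7 to 155 CPM in DMSO, in TCam-2, and over 112 to 163 CPM in I-BRD9, against 102 to 166 CPM in DMSO, in 2102 EP. With this spread between libraries, the interval of its log2 fold change ran from -0.44 to 0.59 in TCam-2 and from -0.51 to 0.52 in 2102 EP.

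In the path from squalene to cholesterol, 9 of 11 genes rose in TCam-2 and 7 of 11 in 2102 EP, and none was called lower. Of all genes tested, 15.3% were called higher and 16.5% lower in TCam-2, and 18.2% and 18.6% in 2102 EP. The summed level of the 11 genes was 1881 to 1927 CPM in I-BRD9, against 907 to 970 CPM in DMSO, in TCam-2. In 2102 EP it was 1282.5 to 1338 CPM in I-BRD9, against 922 to 993 CPM in DMSO. The sums of I-BRD9 and DMSO did not overlap in either line, while in DMSO those of the lines overlapped. TM7SF2 (ENSG00000149809, chr11:65111845-65116384, plus strand), a sterol reductase that acts on the same step as the lamin B receptor, had the largest log2 fold change of the 11 in each line. In TCam-2 TM7SF2 had 92.3, 80.2 and 92.2 CPM in I-BRD9, against 29.3, 29.9 and 28.6 CPM in DMSO. In 2102 EP TM7SF2 had 42.2, 32.9 and 33.3 CPM in I-BRD9, against 8.10, 8.59 and 8.55 CPM in DMSO. It was 3.02-fold higher in TCam-2 (1.59 ± 0.11, adjusted p = 1.11e-10) and 4.27-fold higher in 2102 EP (2.10 ± 0.13, adjusted p = 1.67e-11).

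FDFT1, SQLE and LSS make squalene, epoxidise it and close its rings to lanosterol. In TCam-2 FDFT1 had 838, 844 and 856 CPM in I-BRD9, against 369, 380.4 and 344 CPM in DMSO, and in 2102 EP 179, 197 and 192 CPM in I-BRD9, against 132, 133 and 124 CPM in DMSO. SQLE had 325, 318 and 284 CPM in I-BRD9, against 137, 144 and 133 CPM in DMSO, in TCam-2, and 221, 198 and 201 CPM in I-BRD9, against 135, 142 and 149.9 CPM in DMSO, in 2102 EP. LSS had 65.4, 52.0 and 56.2 CPM in I-BRD9, against 19.8, 27.2 and 20.8 CPM in DMSO, in TCam-2, and 49.8, 47.2 and 43.3 CPM in I-BRD9, against 29.7, 24.4 and 23.5 CPM in DMSO, in 2102 EP. All 3 genes stood without overlap in both lines. Their log2 fold changes in TCam-2 were 1.21 ± 0.07 for FDFT1, 1.16 ± 0.08 for SQLE and 1.35 ± 0.13 for LSS (adjusted p = 1.86e-11, 1.21e-10 and 3.29e-08). In 2102 EP they were 0.55 ± 0.08, 0.54 ± 0.08 and 0.85 ± 0.13 in the same order (adjusted p = 5e-06, 1.12e-05 and 1.91e-05).

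The enzymes that trim lanosterol to cholesterol did not move alike. MSMO1, the sterol methyl oxidase, had 183, 182 and 189 CPM in I-BRD9, against 91.5, 82.4 and 76.3 CPM in DMSO, in TCam-2, and 201, 212 and 240.5 CPM in I-BRD9, against 145, 139 and 125 CPM in DMSO, in 2102 EP. DHCR7, the reductase of the last step of one branch, had 108, 107 and 101 CPM in I-BRD9, against 60.9, 57.5 and 47.4 CPM in DMSO, in TCam-2, and 106, 119 and 129 CPM in I-BRD9, against 79.6, 73.2 and 67.6 CPM in DMSO, in 2102 EP. EBP, a sterol isomerase, had 164, 167 and 183 CPM in I-BRD9, against 122, 127 and 139 CPM in DMSO, in TCam-2, and 238, 213 and 214 CPM in I-BRD9, against 177, 194 and 174 CPM in DMSO, in 2102 EP. These 3 rose without overlap in both lines, by 1.15, 0.93 and 0.41 in TCam-2 (adjusted p = 1.06e-09, 2.36e-07 and 0.000479) and by 0.67, 0.69 and 0.28 in 2102 EP (adjusted p = 2.24e-06, 1.06e-05 and 0.00837) on the log2 scale.

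CYP51A1, the lanosterol demethylase, had 58.0, 47.7 and 63.7 CPM in I-BRD9, against 41.7, 44.8 and 39.8 CPM in DMSO, in TCam-2 (0.42 ± 0.14, adjusted p = 0.0312). In 2102 EP CYP51A1 had 56.9, 75.7 and 86.0 CPM in I-BRD9, against 96.9, 86.8 and 74.1 CPM in DMSO (-0.24 ± 0.14, adjusted p = 0.199). It rose without overlap in TCam-2 and overlapped in 2102 EP. The call in TCam-2 was lost without any 1 of I-BRD9 replicates 1 and 3 and DMSO replicates 1 and 3 (0.33 to 0.42, adjusted p = 0.0871 to 0.128), and in 2102 EP CYP51A1 was called lower without I-BRD9 replicate 3 (-0.37, adjusted p = 0.0446). HSD17B7, a sterol ketoreductase, had 20.9, 15.5 and 19.2 CPM in I-BRD9, against 11.2, 11.9 and 17.1 CPM in DMSO, in TCam-2 (0.47 ± 0.17, adjusted p = 0.0377). In 2102 EP HSD17B7 had 14.01, 16.5 and 13.5 CPM in I-BRD9, against 15.98, 16.7 and 18.4 CPM in DMSO (-0.21 ± 0.17, adjusted p = 0.364). Its groups overlapped in both lines, and without any 1 of I-BRD9 replicates 1 and 3 and DMSO replicates 1 and 2 it was not called in TCam-2 (0.36 to 0.45, adjusted p = 0.0923 to 0.179). Estimated counts that are not whole, as arise when a read is split between annotated sequences, lay more than 0.01 from a whole number for CYP51A1 in 6 libraries, HSD17B7 in 8, SCD in 3, FASN in 2 and SQLE in 1. Annotated pseudogenes of HSD17B7 held 3.23% of the counts of that gene and its pseudogenes together.

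NSDHL, a sterol dehydrogenase, and SC5D, a sterol desaturase, were called in neither line. NSDHL had 40.3, 37.5 and 31.4 CPM in I-BRD9, against 33.7, 37.2 and 33.5 CPM in DMSO, in TCam-2 (0.07 ± 0.10, adjusted p = 0.688), and 149, 125 and 135 CPM in I-BRD9, against 125, 116 and 118 CPM in DMSO, in 2102 EP (0.19 ± 0.09, adjusted p = 0.128). SC5D had 34.3, 30.2 and 37.8 CPM in I-BRD9, against 29.7, 27.2 and 27.9 CPM in DMSO, in TCam-2 (0.27 ± 0.13, adjusted p = 0.108), and 36.0, 46.4 and 49.3 CPM in I-BRD9, against 48.2, 44.7 and 38.1 CPM in DMSO, in 2102 EP (0.01 ± 0.12, adjusted p = 0.962). Of these, SC5D in TCam-2 stood without overlap and did not pass the test, and the other groups overlapped.

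Of the fatty acid genes, FASN and SCD rose in both lines and ACACA was called in neither. FASN, fatty acid synthase, had 970.2, 889.9 and 887 CPM in I-BRD9, against 485, 525 and 465 CPM in DMSO, in TCam-2 (0.90 ± 0.10, adjusted p = 1.56e-07). In 2102 EP FASN had 725, 586 and 544 CPM in I-BRD9, against 235, 209.9 and 239 CPM in DMSO (1.44 ± 0.10, adjusted p = 9.86e-11). FASN stood without overlap in both lines. SCD, the desaturase that makes monounsaturated fatty acids, had 817, 737 and 849 CPM in I-BRD9, against 296, 309.9 and 326 CPM in DMSO, in TCam-2 (1.37 ± 0.10, adjusted p = 2.21e-10). In 2102 EP SCD had 522, 679 and 674 CPM in I-BRD9, against 528, 519 and 465 CPM in DMSO (0.31 ± 0.10, adjusted p = 0.0132). There I-BRD9 replicate 1 lay within the DMSO range, and the call did not hold without replicate 2 or 3 of I-BRD9 or replicate 3 of DMSO (0.25 to 0.26, adjusted p = 0.0614 to 0.076). ACACA, the acetyl-CoA carboxylase that feeds FASN, had 21.5 to 25.8 CPM in I-BRD9, against 18.2 to 24.7 CPM in DMSO, in TCam-2, and 57.0 to 70.9 CPM in I-BRD9, against 50.8 to 60.7 CPM in DMSO, in 2102 EP, with overlap in both (adjusted p = 0.372 in TCam-2 and 0.255 in 2102 EP).

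The genes of sterol transport and of LXR did not move as one. STARD4, which carries cholesterol between membranes and is a known SREBP target, had 29.9, 23.6 and 27.4 CPM in I-BRD9, against 12.1, 14.1 and 13.7 CPM in DMSO, in TCam-2 (1.02 ± 0.15, adjusted p = 1.09e-05), and 14.8, 15.1 and 17.9 CPM in I-BRD9, against 9.36, 10.7 and 11.1 CPM in DMSO, in 2102 EP (0.62 ± 0.15, adjusted p = 0.00295). MYLIP, an LXR-induced ubiquitin ligase that acts on lipoprotein receptors, had 38.6, 43.3 and 38.3 CPM in I-BRD9, against 16.5, 18.1 and 14.2 CPM in DMSO, in TCam-2 (1.30 ± 0.13, adjusted p = 4.18e-08). In 2102 EP MYLIP overlapped, with 21.6, 19.4 and 22.6 CPM in I-BRD9, against 18.8, 21.2 and 19.3 CPM in DMSO (0.10 ± 0.13, adjusted p = 0.582). ABCA1 (ENSG00000165029, chr9:104781002-104928237, minus strand), the LXR-induced transporter that exports cholesterol, went the other way in TCam-2. It had 0.888, 1.08 and 1.04 CPM in I-BRD9, which is 9 counts in each library, against 8.13, 8.58 and 8.68 CPM in DMSO (-3.07 ± 0.29, adjusted p = 3.36e-08). In 2102 EP ABCA1 had 5.03, 5.10 and 3.00 CPM in I-BRD9, against 6.28, 6.24 and 4.59 CPM in DMSO, with overlap (-0.38 ± 0.25, adjusted p = 0.248). ABCA1 and MYLIP, both counted among LXR targets, were thus called in opposite directions in TCam-2.

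The I-BRD9 effect differed between the lines for 10 of the 29 genes, tested as TCam-2 minus 2102 EP; 7 differences were positive and 3 negative, where 5.90% and 7.19% of all genes tested were called, 13.1% in all. Positive were MYLIP (1.20 ± 0.18), SCD (1.06 ± 0.13), FDFT1 (0.67 ± 0.10), CYP51A1 (0.66 ± 0.20), SQLE (0.62 ± 0.11), HMGCS1 (0.51 ± 0.13) and MSMO1 (0.47 ± 0.12), with adjusted p of 5.72e-05, 6.81e-06, 9.6e-05, 0.0355, 0.000422, 0.0103 and 0.0126 in this order. Negative were ABCA1 (-2.68 ± 0.39, adjusted p = 4.07e-05), INSIG1 (-0.84 ± 0.15, adjusted p = 0.000368) and FASN (-0.54 ± 0.13, adjusted p = 0.00833). SCD and FASN, neighbours in fatty acid synthesis, thus differed in opposite senses, SCD rising more in TCam-2 and FASN more in 2102 EP. Just outside the threshold lay TM7SF2 (-0.50 ± 0.17, adjusted p = 0.0502), HSD17B7 (0.69 ± 0.24, adjusted p = 0.0655), LSS (0.50 ± 0.18, adjusted p = 0.0749) and SREBF2 (0.41 ± 0.15, adjusted p = 0.0818). For SREBF1 the difference was 0.06 ± 0.31, with an interval from -0.65 to 0.76. The difference of CYP51A1 was not called without any 1 of 8 libraries (all but I-BRD9 replicates 1 and 3 and DMSO replicate 3 of 2102 EP and I-BRD9 replicate 2 of TCam-2), at adjusted p of 0.052 to 0.0999, nor with a block by replicate number or by library code (adjusted p = 0.0709 and 0.0731).

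**Figure D3:**
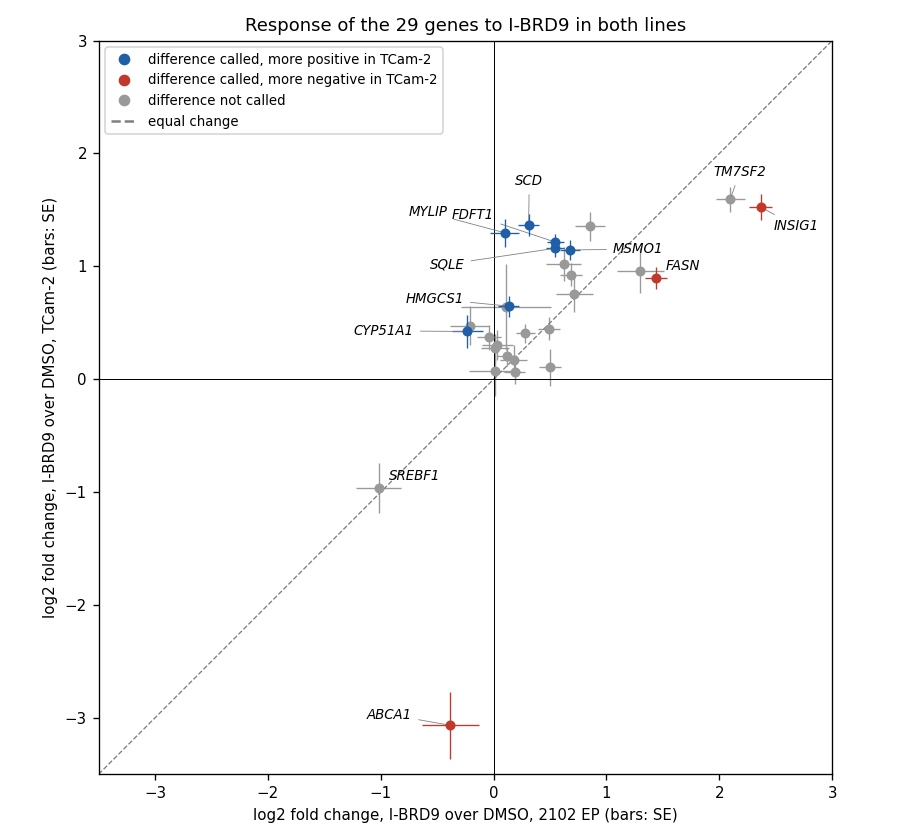
Log2 fold change of I-BRD9 over DMSO in TCam-2 (vertical) against that in 2102 EP (horizontal) for the 29 genes, with bars for the standard error and a dashed line of equal change. Blue points, above the line, are the 7 genes whose difference was called positive, among them SCD and MYLIP, and red points, below it, are INSIG1, FASN and ABCA1, whose difference was called negative; grey points did not differ by the test.

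Between the lines, TCam-2 and 2102 EP, 20 of the 29 genes were called in I-BRD9 and 20 in DMSO, where 62.2% and 62.6% of all genes tested were, so that neither count stands far from the background. Medium differed with the line and cannot be told apart from it. In I-BRD9, 9 genes were higher in TCam-2 and 11 lower (31.1% of all genes tested in each direction); in DMSO, 6 were higher and 14 lower (31.7% and 30.8%). ACAT2 was the most unequal, 31.3-fold lower in TCam-2 in I-BRD9 (-4.97 ± 0.13, adjusted p = 6.28e-19) and 23.8-fold lower in DMSO (-4.57 ± 0.13, adjusted p = 2.57e-18). NSDHL, ACACA, INSIG1, SREBF1, CYP51A1, EBP, MSMO1, MVK and SC5D were also called lower in TCam-2 under both treatments. The log2 fold changes were -2.56 in I-BRD9 and -1.72 in DMSO for INSIG1 and -1.90 and -1.78 for NSDHL. In I-BRD9 the calls of CYP51A1, SC5D and MSMO1 were lost under 6, 3 and 2 of 19 alternative settings, and in DMSO that of MVK under 1. FDFT1, TM7SF2, FASN and PMVK were higher in TCam-2 under both treatments, FDFT1 by 2.16 in I-BRD9 and 1.49 in DMSO and TM7SF2 by 1.29 and 1.80. The call of PMVK in DMSO (0.32 ± 0.13, adjusted p = 0.0433) was lost without either replicate 2 of DMSO, without DMSO replicate 1 of 2102 EP and without I-BRD9 replicate 2 of TCam-2 (adjusted p = 0.052 to 0.224). It was also lost under 6 of the 7 other settings, all but limma voom (adjusted p = 0.0514 to 0.0823).

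SCD and ABCA1 changed sides between the treatments. SCD was higher in TCam-2 than in 2102 EP in I-BRD9 (0.36 ± 0.09, adjusted p = 0.00239) and lower in DMSO (-0.70 ± 0.10, adjusted p = 1.24e-06). ABCA1 was lower in TCam-2 in I-BRD9 (-2.12 ± 0.31, adjusted p = 3.09e-06) and higher in DMSO (0.57 ± 0.24, adjusted p = 0.0446). This call in DMSO was lost when any 1 of the 6 DMSO libraries was left out (0.43 to 0.64, adjusted p = 0.0546 to 0.166), and under DESeq2, its size factors or no filter on low counts (adjusted p = 0.0515 to 0.115). SQLE, LSS, STARD4 and MYLIP were called higher in TCam-2 in I-BRD9 alone, and MVD in DMSO alone. HMGCS1, DHCR7 and SREBF2 were called lower in TCam-2 in DMSO alone. The difference of differences was called for SQLE, MYLIP and HMGCS1 and missed the threshold for LSS, STARD4, DHCR7, SREBF2 and MVD. Single libraries decided some of these calls. LSS in I-BRD9 was not called without I-BRD9 replicate 2 or 3 of 2102 EP or I-BRD9 replicate 1 of TCam-2 (0.20 to 0.32, adjusted p = 0.0646 to 0.21) or by DESeq2 (adjusted p = 0.0542), and SREBF2 in DMSO not without DMSO replicate 3 of TCam-2 (adjusted p = 0.053). Without I-BRD9 replicate 1 of 2102 EP, DHCR7 (-0.24, adjusted p = 0.0354) and HMGCS1 (-0.33, adjusted p = 0.000709) were also called lower in TCam-2 in I-BRD9, and HMGCS1 also without I-BRD9 replicate 3 of TCam-2 (-0.26, adjusted p = 0.0326). So was HMGCS1 with DESeq2 size factors, upper-quartile scaling or no filter on low counts (adjusted p = 0.0346 to 0.0417). In DMSO, STARD4 was called higher under 3 of 19 alternative settings, and the call of MVD was lost under 4 (adjusted p up to 0.095). With either block MVD was also called higher in I-BRD9 (adjusted p = 0.0318 and 0.0446). FDPS, HSD17B7, IDI1, INSIG2 and SCAP were called between the lines under neither treatment.

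**Figure D4:**
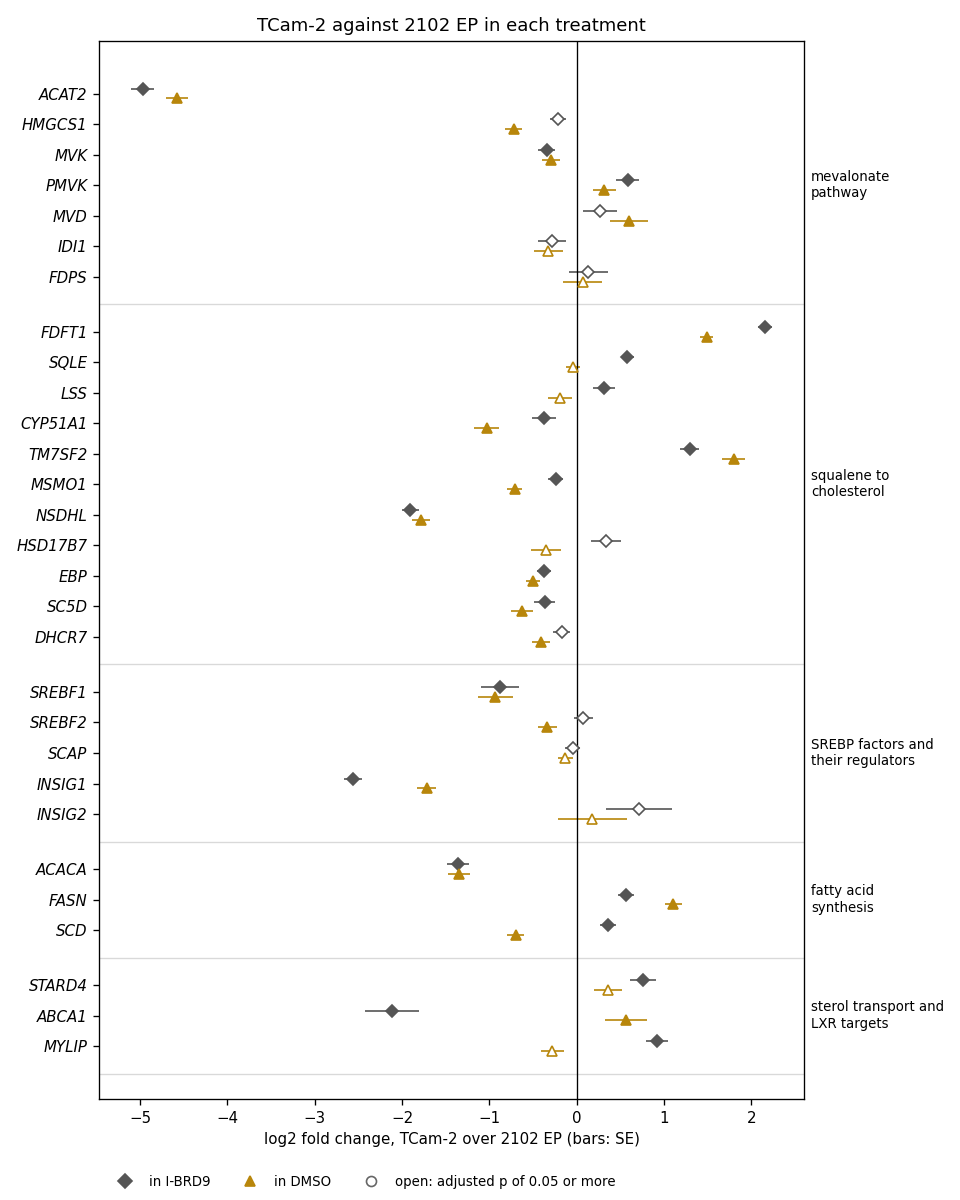
Log2 fold change of TCam-2 over 2102 EP for each of the 29 genes, grouped by role, in I-BRD9 (diamonds) and in DMSO (triangles), with bars for the standard error; filled symbols have an adjusted p under 0.05. ACAT2 lies farthest left under both treatments, FDFT1 lies right under both, and SCD and ABCA1 have filled symbols on both sides of 0.

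Some measures moved with the treatment beside these genes. In TCam-2 the summed CPM of 4 seminoma markers (SOX17, TFAP2C, PRDM1 and PRAME) was 1088 to 1256.5 in I-BRD9, against 1349.5 to 1844.5 in DMSO. In 2102 EP that of 4 embryonal carcinoma markers (SOX2, GDF3, TNFRSF8 and DNMT3B) was 407 to 459 in I-BRD9, against 1355 to 1435 in DMSO. The sums of markers of the lines' own identity were thus lower in I-BRD9 in both. Not every marker separated. TFAP2C, the largest part of the TCam-2 sum, overlapped, at 929 to 1117 CPM in I-BRD9, against 981 to 1469 CPM in DMSO. TNFRSF8, near 0, overlapped in 2102 EP. The other markers of these sums were lower without overlap. Of other cell types, 5 stromal markers summed to 87.5 to 133.9 CPM in I-BRD9, against 166 to 178 CPM in DMSO, in TCam-2, most of it COL1A2, with DCN at 0 in all but 1 library. In 2102 EP the 5 stromal markers summed to 20.4 to 22.7 CPM in I-BRD9, against 16.4 to 21.8 CPM in DMSO. The 4 blood markers summed to 0.347 to 1.09 CPM in I-BRD9, against 0.489 to 0.824 CPM in DMSO, in TCam-2, and to 2.31 to 3.598 CPM in I-BRD9, against 0.342 to 1.28 CPM in DMSO, in 2102 EP, most of it CD68, with CD3E at 0 in all 12 libraries. The part of these measures in the results was not tested. Within 2102 EP, I-BRD9 replicate 1 was the lowest of its group for 14 of the 29 genes and the highest for 11; without it 16 genes were called higher and 1 lower, and the log2 fold change of INSIG1 was 2.45 and that of FASN 1.31. DMSO replicate 3 was the lowest of its group for 16 of the 29 genes in each line. Without it 17 genes were called higher and 2 lower in TCam-2, and 14 higher and 1 lower in 2102 EP.

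Further genes of lipid metabolism were read from 5 lists with 63 genes, of which 61 were tested. In TCam-2, 17 were called higher and 7 lower, 39.3% in all beside 31.8% of all genes tested, with a median log2 fold change of 0.16. In 2102 EP, 16 were called higher and 5 lower, 34.4% in all beside 36.8% of all genes tested, with a median of 0.09. The effect of I-BRD9 differed between the lines for 9 of the 61, with 3 differences positive and 6 negative (14.8%, beside 13.1% of all genes tested). The list of fatty acid synthesis and SREBP-1 genes had 8 of 13 higher and 1 lower in TCam-2 (median 0.76) and 6 of 13 higher and none lower in 2102 EP (median 0.53). This was 69.2% called in TCam-2, beside 31.8% of all genes tested, and 46.2% in 2102 EP, beside 36.8%. FADS1, a desaturase of polyunsaturated fatty acids, had 74.5, 78.6 and 83.9 CPM in I-BRD9, against 17.7, 22.0 and 21.1 CPM in DMSO, in TCam-2 (1.96 ± 0.12, adjusted p = 2.6e-11), and 386, 336 and 284 CPM in I-BRD9, against 104, 126 and 121 CPM in DMSO, in 2102 EP (1.52 ± 0.10, adjusted p = 1.84e-10). It stood without overlap in both lines. In TCam-2 SCD5, a relative of SCD, rose (1.33 ± 0.22, adjusted p = 5.32e-05) and ELOVL6, an elongase of saturated fatty acids, fell (-1.18 ± 0.09, adjusted p = 1.14e-09). In 2102 EP ACSS2, which makes acetyl-CoA from acetate, rose (1.22 ± 0.16, adjusted p = 2.46e-06), as did the elongase ELOVL1 (1.00 ± 0.13, adjusted p = 2.48e-06). Both were also called higher in TCam-2. There ELOVL1 kept its call over 20 alternative settings (log2 fold change 1.03 to 1.17), and ACSS2 lost it under 6 of them (0.26 to 0.51).

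The list of sterol uptake, transport and storage had 5 of 15 tested genes higher and 3 lower in TCam-2 (median 0.04) and 6 higher and 1 lower in 2102 EP (median 0.20). This was 53.3% called in TCam-2, beside 31.8% of all genes tested, and 46.7% in 2102 EP, beside 36.8%. SOAT2, which stores cholesterol as esters, had 2 counts over the 3 I-BRD9 libraries, against 89 over the 3 DMSO libraries, in TCam-2, a level 46.2 times as high in DMSO (95% counting interval 12.4 to 387), and no count in 2102 EP in either treatment. Such intervals cover counting error only, since reads without molecular identifiers are not independent molecules. SOAT1, the more widely expressed esterifying enzyme, rose in TCam-2 (0.71 ± 0.21, adjusted p = 0.0121); SOAT1 was not called without replicate 3 of I-BRD9 or replicate 1 or 3 of DMSO (0.53 to 0.66, adjusted p = 0.0512 to 0.0813). In 2102 EP GRAMD1B, which moves cholesterol from the plasma membrane, rose (1.18 ± 0.33, adjusted p = 0.00672), as did NPC2 (1.10 ± 0.09, adjusted p = 9.59e-10) and NPC1 (1.02 ± 0.13, adjusted p = 1.85e-06), which carry cholesterol out of lysosomes. NPC2 and NPC1 were also called higher in TCam-2 (0.39 to 0.49 and 0.53 to 0.75 over 20 alternative settings). SOAT1 was also called higher in 2102 EP (0.66 to 1.055 over 20 settings). None of these calls was lost.

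In the lists of LXR and sterol efflux and of SREBP processing, few genes were called. For LXR and efflux the share was 11.1% in TCam-2 and 22.2% in 2102 EP, and for SREBP processing 8.33% and 16.7%. Of all genes tested, 31.8% and 36.8% were called. Of 9 LXR and efflux genes, none was called higher in either line; SCARB1, a lipoprotein receptor, fell in TCam-2 (-0.47 ± 0.11, adjusted p = 0.00235) and in 2102 EP (-0.40 ± 0.11, adjusted p = 0.00512), and NR1H2, which codes for an LXR, fell in 2102 EP (-0.45 ± 0.13, adjusted p = 0.0089), a call lost without DMSO replicate 1 (-0.35, adjusted p = 0.0694). Of 12 SREBP processing genes, 1 rose in TCam-2 and 2 in 2102 EP, and none was called lower in either line. In 2102 EP SPRING1, which licenses the protease that cuts SREBPs, rose (0.45 ± 0.09, adjusted p = 0.000433), as did MBTPS1, that protease (0.28 ± 0.09, adjusted p = 0.0244). MBTPS1 was not called without replicate 1 of I-BRD9 or of DMSO. The list of isoprenoid and oxysterol branches had 3 of 12 higher and 2 lower in TCam-2 (41.7% called, beside 31.8% of all genes tested) and 2 higher and 2 lower in 2102 EP (33.3%, beside 36.8%). GGPS1, which makes the longer isoprenoid for protein anchoring, rose in TCam-2 (0.65 ± 0.13, adjusted p = 0.000382) and in 2102 EP (0.48 ± 0.14, adjusted p = 0.01), there not without I-BRD9 replicate 2 or DMSO replicate 3. CYP46A1, which makes an oxysterol, was counted at 2.27, 3.24 and 3.01 CPM in I-BRD9, against 0.118, 0.636 and 0.855 CPM in DMSO, in TCam-2 (2.37 ± 0.60, adjusted p = 0.00417), and at 3.67, 2.00 and 1.89 CPM in I-BRD9, against 1.48, 0.118 and 0.383 CPM in DMSO, in 2102 EP (1.87 ± 0.59, adjusted p = 0.0167), a call that did not hold in 2102 EP without replicate 1 of I-BRD9 or replicate 2 or 3 of DMSO. PDSS1, for the side chain of coenzyme Q, fell in TCam-2 (-0.79 ± 0.20, adjusted p = 0.00329), and NUS1, for dolichol, fell in 2102 EP (-0.83 ± 0.15, adjusted p = 0.000221).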

How the data were processed

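The authors deposited 1 table of estimated counts per gene (expected counts, not always whole numbers) for 12 libraries. Per the submitters' processing notes the tools were Trim Galore, STAR 2.7.11b, Salmon 1.9.0, R 4.2.0 and DESeq2 on GRCh38. Their order, the annotation and the handling of strand were not given in the sources used here. Per the labels, RNA was column-purified and libraries were made with a 3′ end kit.

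The estimated counts were rounded and tested with edgeR 4.0.16 (R 4.3.3): TMM scaling, filterByExpr, robust glmQLFit with 4 group means over all 12 libraries (8 residual degrees of freedom, common biological coefficient of variation 0.127) and glmQLFTest, with Benjamini-Hochberg adjustment over 15614 genes in each of 5 comparisons. On simulated counts with 200 changed genes, 54% of 2-fold changes were called in 2102 EP (14900 genes in that step) and 60% in TCam-2 (14816 genes). The adjustment depends on the share of genes that change, and in the data 36.8% were called in 2102 EP and 31.8% in TCam-2. The simulated rates therefore do not carry over to the data. Alternatives were DESeq2 1.42.0, limma voom 3.58.1, other scalings, no filter, blocks, 1 line alone and leaving out each library. Coordinates came from GENCODE release 29, windows from RefSeq. All 29 genes, at most 3 called genes of each other list per line with the largest changes, line markers and BRD9 are named; 2 genes that this rule names are not reported here. The genes and lists were chosen with earlier results of these data known.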

Additional observations from a re-analysis of the deposited data

Results flagged for a closer look

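For 10 genes the effect of I-BRD9 differed between the lines by edgeR's test of the difference itself (log2 fold change in TCam-2 minus that in 2102 EP). MYLIP had 1.20, with all TCam-2 libraries in I-BRD9 above those in DMSO and overlapping groups in 2102 EP. SCD had 1.06, FDFT1 0.67, SQLE 0.62 and MSMO1 0.47, all 4 called higher in both lines and more so in TCam-2. HMGCS1 had 0.51 and CYP51A1 0.66, both called higher in TCam-2 and not called in 2102 EP. ABCA1 had -2.68, called lower in TCam-2 and not called in 2102 EP. INSIG1 had -0.84 and FASN -0.54, both called higher in both lines and more so in 2102 EP. No test for single deviating libraries was made in groups of 3. Libraries were only counted as lowest or highest of their group and left out in turn.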

How the results depend on the processing

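Over 12 ways of leaving out 1 library and 8 other alternatives within a line, or 7 for the difference and between the lines, no called value of the 29 genes changed sign. Calls were kept in 409 of 420 gene and setting pairs in TCam-2 and 317 of 320 in 2102 EP, in 180 of 190 for the difference, and in 365 of 380 (I-BRD9) and 355 of 380 (DMSO) between the lines. Leaving out 1 library at a time, 17 to 19 genes were higher and 2 lower in TCam-2, 14 to 16 higher and 1 to 2 lower in 2102 EP (2 without I-BRD9 replicate 3), 6 to 8 differences were positive and 3 to 4 negative, and between the lines 8 to 10 were higher and 8 to 14 lower in I-BRD9, and 3 to 7 higher (3 without either replicate 2 of DMSO) and 13 to 16 lower in DMSO. Of the 5 other lists, 3 to 5 genes were lower in 2102 EP (3 without DMSO replicate 1 or 2), 3 with the 6 libraries of that line alone, and 2 to 5 differences were positive (5 without I-BRD9 replicate 1 of 2102 EP). The cause of these moves was not tested. Scaling moved the median over all genes tested to at most 0.0427.

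With the replicate block, 18 genes were higher and 2 lower in TCam-2, and 15 higher and 1 lower in 2102 EP; of the calls within a line, CYP51A1 in TCam-2 was lost (0.42, adjusted p = 0.0609), as was its difference between the lines (0.66, adjusted p = 0.0709). Deviations of same-numbered libraries correlated at 0.16, 0.034 and 0.127 in TCam-2 and at -0.119, 0.096 and -0.079 in 2102 EP, so not every pair was over 0.1 and the numbers were not taken to pair the libraries. Same-numbered libraries also share a range of library codes in all 3 pairs of 2102 EP and in pair 3 of TCam-2. A block by the ranges of library codes in the labels gave 18 and 2 in TCam-2 and 15 and 1 in 2102 EP. INSIG2, ABCA1 and SREBF1 rest on the fewest counts of the 29 genes, and a change of INSIG2 smaller than its interval was not detectable at this depth.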
